A study of Mus musculus with 18 samples.

Results

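The comparison described here sets 3-day embryoid bodies (EB) against mouse embryonic stem cells (ESC). It was chosen by sample titles, which gave 10 of the 18 arrays of the series, and these came from 5 of its 10 samples. The ESC were the line MES3, derived from a C57BLxCBA embryo, and were grown on embryonic fibroblast feeders inactivated with mitomycin C, with the cytokine LIF and with b-mercaptoethanol. The EB came from clusters cut out of undifferentiated ESC colonies and were kept for 3 days on low-adhesion plates in the same medium without LIF and without b-mercaptoethanol. All samples were therefore the same single line, and the change of surface, the loss of the feeder layer and the loss of both additives came together. Nothing in the labels ties a replicate to its own culture, so the p-values below cover only the variation seen among these samples, which may be technical.

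LIF acts through its receptor and the transcription factor STAT3 and holds mouse ESC in the undifferentiated state. When LIF is withdrawn and the cells float as aggregates, the outer cells of an EB first form primitive endoderm, and an epithelium and the germ layers follow. Feeder fibroblasts secrete collagens and other matrix proteins, complement factors and signalling proteins. Their RNA is included where an ESC culture grown on feeders is lysed whole.

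Total RNA was hybridised to 1-colour oligonucleotide arrays from 2 products, with 2 arrays for each sample. On UniSet Mouse 20K I (called UniSet) there were ESC replicate 1 and 3-day replicates 1 and 2, and on Mouse Whole Genome (called Whole Genome) ESC replicate 2 and 3-day replicate 3. Values are log2 normalized intensities, set on a separate scale for each product, so a level is compared only with the ESC level of the same product. A probe counted as above background where the scanner did not mark it low, which held for 27.8 to 33.4% of the 19758 shared gene probes on the UniSet arrays and for 60.9 to 67.6% of the probes on the Whole Genome arrays. The number of arrays limits the precision. ESC replicate 2 stood apart, since its 2 arrays differed by a median of 0.41 (log2) over the genes tested, against 0.124 for 3-day replicate 3 and 0.16 to 0.215 for the UniSet samples. Within each product, ESC and 3-day arrays carried the same analysis date in the file headers.

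The labels were checked against defining genes. Of 10 pluripotency markers, 8 had a named probe on both products and all 8 were above background on both arrays of ESC replicate 2 and of 3-day replicate 3. On UniSet 7 of the 8 were above background in each sample, and Sox2 was not in any. Of 16 markers of feeder fibroblasts, 15 had a probe on both products. In ESC 13 of them were above background on both UniSet arrays and all 15 on both Whole Genome arrays. In 3-day EB the numbers were 2, 6 and 10. Their summed linear intensity was 2277 in ESC replicate 1 against 192 and 360.3 in 3-day replicates 1 and 2, and 25596 in ESC replicate 2 against 1917 in 3-day replicate 3. The summed intensity of these 15 markers was therefore 11.9, 6.32 and 13.4 times as high in ESC as in 3-day replicates 1, 2 and 3. Of the 13 markers tested, 6 were called lower and are among the falls described below, so the sum partly repeats those falls. Lum (lumican, a collagen-binding proteoglycan) was above background on no 3-day array, and Dcn, Postn and Col3a1 were above it in 3-day replicate 2 only. These values stand beside every fall described below, and the part of the feeder RNA in those falls was not tested. In RNA from whole cultures, fewer cells of a type and less RNA per cell cannot be told apart.

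Among the genes that passed the test at 3 days, more were lower than higher and the falls were larger. Of 6299 genes tested with limma (5698 of them named, the others known by probe only), 217 passed an adjusted p under 0.05, which is 3.44% of those tested. The 167 lower genes were 2.65% and the 50 higher genes 0.794%. These are the shares to set beside the list counts below. At least 2-fold differences made up 203 of the 217 calls, 44 higher and 159 lower. Falls of at least 8-fold numbered 34 and rises of that size 2. Unadjusted, 1213 genes had a p under 0.05. Over all genes tested 43.9% of differences were below 0, and the median was 0.06 (log2), so the surplus of falls belongs to the called genes and not to all. It also depends on which genes are measured: among genes above background on every array 19 were higher and 30 lower, and 75 of the 167 lower genes were above background on no UniSet 3-day array and entered the test through groups where they are brighter. The UniSet 3-day levels printed below for such genes are readings below background, so the sizes of their falls are not exact. Among them are Enpp2, Col1a2, Col6a1, Ltbp3, Ltbp4, Thbs2, Inhba, C1ra, Hoxb7, Twist1, Ccnd2 and Atf5. Counting size alone, with no test, 79 genes were at least 2-fold higher and 219 at least 2-fold lower on each product. The counts rest on the Whole Genome samples: without ESC replicate 2 there was 1 call (720 genes at an unadjusted p under 0.05), and without 3-day replicate 3 there were 0 (647 at an unadjusted p under 0.05). Without ESC replicate 1 there were 54, without 3-day replicate 1 there were 71, without 3-day replicate 2 there were 258, and without 7-day replicates 1 and 2, which help to set the spread and the gap between products, 135 and 335. No gene named below stayed called without ESC replicate 2 or without 3-day replicate 3, and none of the 217 calls turned its direction in any sample left out.

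All 217 called genes differed the same way in each of the 3 EB samples, which 52.4% of all tested genes did, and the call itself favours such genes. The 2 UniSet EB samples did not move equally. Among the lower genes the median difference from ESC was -2.11 in 3-day replicate 1, -1.59 in replicate 2 and -2.10 in replicate 3 (log2). Replicate 1 lay below replicate 2 for 133 of the 167, or 79.6%, against 51.7% of all genes tested. Among the higher genes the medians were 1.25, 1.02 and 1.71, and replicate 1 lay above replicate 2 for 36 of 50. The plot of the differences on each product shows the same asymmetry between falls and rises.

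**Figure D1:**
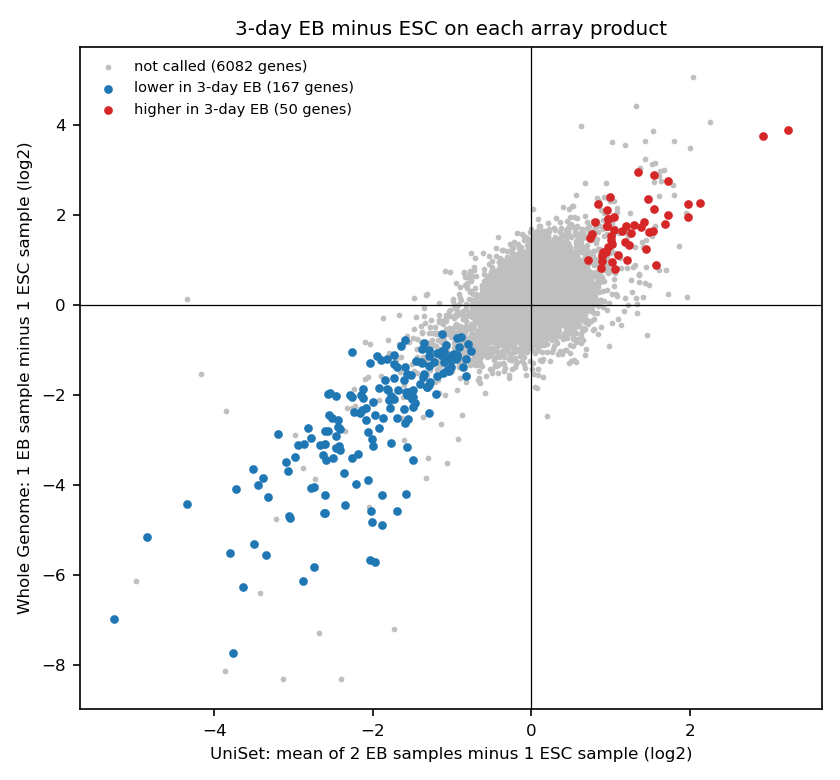
Each point is a gene, with its 3-day EB minus ESC difference on UniSet (x axis, log2, mean of 2 EB samples minus 1 ESC sample) and on Whole Genome (y axis, log2, 1 EB sample minus 1 ESC sample). The 167 lower genes (blue) extend farther from 0 than the 50 higher genes (red), and all 217 lie in the quadrants where both products differ the same way.

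The 12 largest falls that passed came from several roles, among them a secreted antagonist and binding proteins of growth factors. Tnc, which encodes the matricellular protein tenascin C, had the largest fall, from 9.61 to 2.17 and 6.54 on UniSet and from 12.71 to 5.72 on Whole Genome (-5.82 ± 1.27, adjusted p = 0.0496). Tm4sf1, a membrane protein of the tetraspan family, fell from 7.80 to 2.26 and 5.84 on UniSet and from 11.88 to 4.16 on Whole Genome (-5.53 ± 1.13, adjusted p = 0.0408). In both genes 3-day replicate 2 kept the highest level of the UniSet EB samples, and all 3 EB samples lay below ESC. S100a4, a calcium sensor typical of fibroblasts, fell from 9.33 to 3.41 and 5.57 on UniSet and from 12.01 to 6.86 on Whole Genome (-4.93 ± 0.57, adjusted p = 0.00559). Dkk2, an antagonist of Wnt receptors, lay at 6.01 in ESC replicate 1 against 1.80 and 2.96 in 3-day replicates 1 and 2, and 9.39 in ESC replicate 2 against 3.12 in 3-day replicate 3. It was above background on all 4 ESC arrays and on none of the 6 EB arrays, so its fall was at least 10.5-fold (adjusted p = 0.00581). Apbb1ip, an adaptor that links Rap1 to integrin activation, fell from 6.78 to 2.03 and 3.94 on UniSet and from 11.16 to 5.66 on Whole Genome (-4.56 ± 0.56, adjusted p = 0.00624). Igfbp7, a secreted protein that binds insulin-like growth factors, fell by 4.33 ± 0.68 (adjusted p = 0.0158). Ltbp2, Masp1, Fbln2, Syndig1 and Col6a3 also ranked among the 12, and all but Syndig1 are described with their groups. The rank uses fitted differences, so the places of Dkk2, Masp1 and Col6a3, which have only a bound, are not exact. Apbb1ip and Syndig1 were above background on no UniSet 3-day array. Tnc, Tm4sf1, S100a4, Igfbp7, Ltbp2 and Fbln2 were above it on 2 of the 4. The sizes and places of these genes are therefore not exact either.

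**Figure D2:**
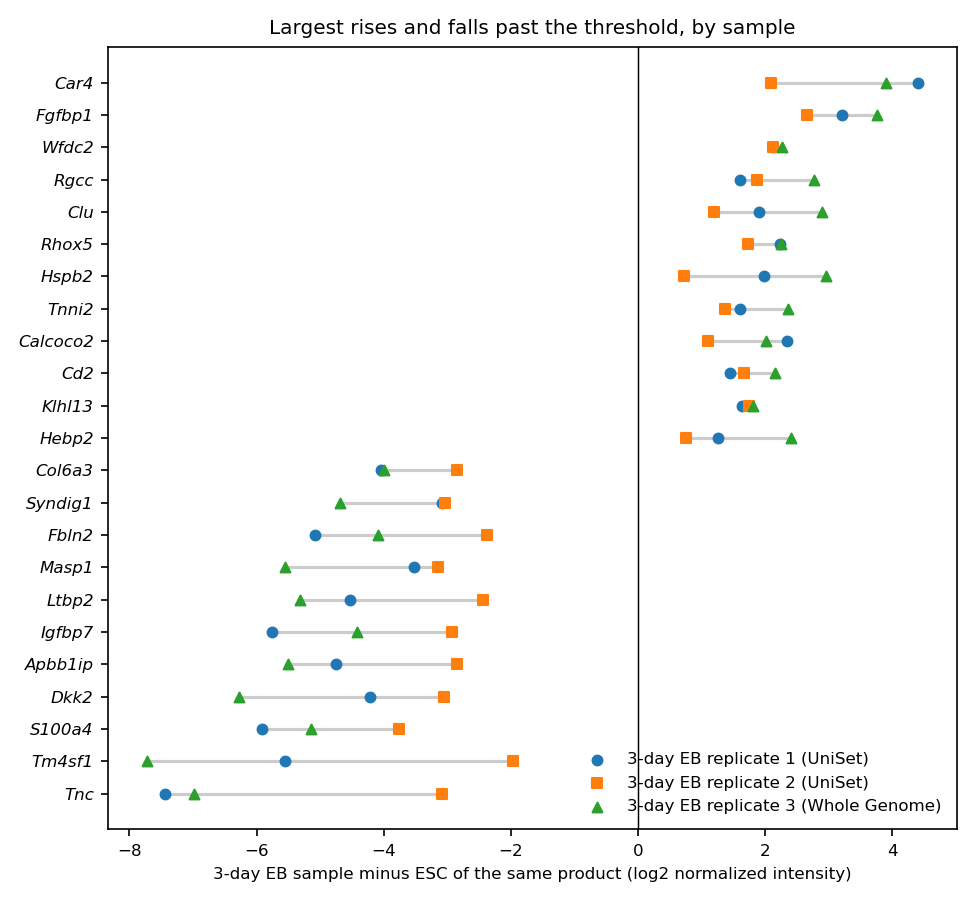
For the 12 largest rises and 11 of the 12 largest falls past the threshold, the x axis gives the log2 difference of each 3-day EB sample from the ESC sample of the same product, and each row is a gene. Every point of the falling genes lies below 0 and every point of the rising genes above 0, and 3-day replicate 2 (orange squares) lies nearest to 0 in most rows.

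Genes of the extracellular matrix made up the largest block of falls among the listed genes. Over 6 matrix lists (collagens, their processing enzymes, microfibrils, proteoglycans and matricellular proteins, proteases with their inhibitors, and basement membrane), 60 genes were tested, of which 23 were lower, 0 higher and 37 did not pass. That is 38.3% lower, against 2.65% of all genes tested. Their median difference was -1.80 against 0.06 over all genes. The lists were chosen with earlier results of these data known, and these 6 hold 111 of the 701 listed genes. The size of the block and its share depend on that choice. Some of the 23, among them Col6a1, Col1a2, Lox, Ltbp3, Ltbp4 and Thbs2, were above background on no UniSet 3-day array. They entered the test through groups where they are brighter. The same lists hold larger differences that did not pass, in genes with a wide spread between the EB samples.

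Collagens are the main fibres of connective tissue, and type VI collagen forms beaded filaments around cells. Of 9 fibrillar and type VI collagen genes tested, 6 were lower and 3 did not pass, with a median of -3.26, or -2.83 with Col6a3 at its bound. Col6a2 lay at 8.70 in ESC replicate 1 against 4.605 and 5.78 in 3-day replicates 1 and 2, and 11.96 in ESC replicate 2 against 8.32 in 3-day replicate 3. The EB samples were all below the ESC of their product, and the fall was 3.53 ± 0.36 (adjusted p = 0.00415). Col6a1 fell from 5.96 to 2.56 and 3.81 on UniSet and from 9.51 to 5.44 on Whole Genome (-3.27 ± 0.48, adjusted p = 0.0126). Col6a3 was above background on no EB array, which gives a fall of at least 6.78-fold (adjusted p = 0.00415). Col1a2, a chain of type I collagen, fell from 6.18 to 3.16 and 3.73 on UniSet and from 10.78 to 6.74 on Whole Genome (-3.26 ± 0.51, adjusted p = 0.0158). Col5a1 and Col5a3, chains of type V collagen, fell by 2.62 ± 0.40 (adjusted p = 0.0151) and 2.01 ± 0.44 (adjusted p = 0.0496). Col3a1 had a larger mean difference (-5.23 ± 1.54) that did not pass (adjusted p = 0.117): it was listed at 1.86 in 3-day replicate 1 and at 4.69 in replicate 2, against 8.27 in ESC. Col5a2 (-2.83 ± 0.73, adjusted p = 0.0848) and Col11a1 (-1.66 ± 0.38, adjusted p = 0.061) also missed the threshold. Col1a1, the other chain of type I collagen, was too dim on UniSet to be tested, and on Whole Genome it read 9.83 in ESC and 6.13 in EB.

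**Figure D3:**
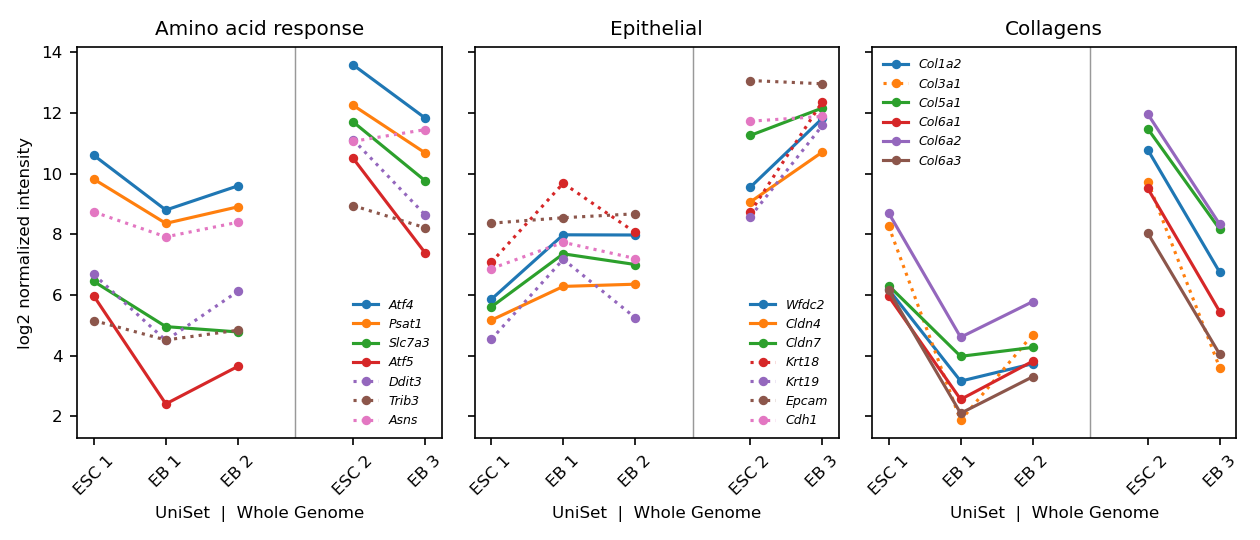
Levels (log2 normalized intensity) of genes of the amino acid response, of epithelium and of collagens, with the 3 UniSet samples left of the vertical line and the 2 Whole Genome samples right of it in each panel. Solid lines are genes past the threshold and dotted lines genes that are not, and points of 1 product are joined. Collagens lay lower in every EB sample than in ESC, with replicate 2 above replicate 1 for each gene drawn, and Asns lay below ESC on UniSet but above it on Whole Genome.

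Enzymes that process and cross-link collagen fell in part. Of 13 tested genes, 5 were lower and 8 did not pass (median -0.37). Loxl1, a lysyl oxidase-like enzyme that cross-links elastin, fell from 7.61 to 3.37 and 5.09 on UniSet and from 12.61 to 8.77 on Whole Genome (-3.55 ± 0.47, adjusted p = 0.00864). Loxl3, a relative of it, fell by 3.44 ± 0.56 (adjusted p = 0.0166). Lox, the founding lysyl oxidase, was above background on all 4 ESC arrays and on no EB array, a fall of at least 5.61-fold (adjusted p = 0.0333). Pcolce, which enhances the removal of procollagen C-propeptides, fell from 8.22 to 6.04 and 6.78 on UniSet and from 11.65 to 9.79 on Whole Genome (-1.86 ± 0.35, adjusted p = 0.0305). P3h3, a member of the prolyl hydroxylase family, fell by 2.74 ± 0.42 (adjusted p = 0.0148). Serpinh1, the collagen chaperone of the endoplasmic reticulum, differed by 0.89 ± 0.61, adjusted p = 0.458. P4ha1, a catalytic subunit of prolyl 4-hydroxylase, differed by -0.33 ± 0.33, adjusted p = 0.624, and Sparc, a collagen-binding glycoprotein, by 0.08 ± 0.45, adjusted p = 0.943. Sparc was above background on every array, at 10.05 in ESC replicate 1 against 10.71 and 9.06 in 3-day replicates 1 and 2, and 12.85 in ESC replicate 2 against 13.31 in 3-day replicate 3.

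Microfibril genes and the latent TGF-beta binding proteins, which store TGF-beta in the matrix, fell in 5 of 9 tested cases, with 4 not passing (median -2.76). Ltbp2 fell from 7.10 to 2.56 and 4.66 on UniSet and from 10.28 to 4.97 on Whole Genome (-4.28 ± 0.62, adjusted p = 0.0124). Ltbp3 and Ltbp4 fell by 2.89 ± 0.54 (adjusted p = 0.0308) and 2.76 ± 0.43 (adjusted p = 0.0158). Fbln2, which encodes the matrix protein fibulin 2, fell from 7.72 to 2.64 and 5.34 on UniSet and from 11.35 to 7.25 on Whole Genome (-3.77 ± 0.76, adjusted p = 0.0386), and Mfap5, a microfibril-associated glycoprotein, fell by 1.77 ± 0.37 (adjusted p = 0.0428). Fbn1, the main microfibril protein fibrillin 1, differed by -3.05 ± 0.98, adjusted p = 0.15.

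Proteoglycans and matricellular proteins, which modulate adhesion, showed 2 lower genes of 11, with 9 not passing and a median of -1.96. Besides Tnc the other was Thbs2 (thrombospondin 2), which fell from 5.22 to 2.42 and 4.002 on UniSet and from 9.91 to 5.10 on Whole Genome (-3.23 ± 0.63, adjusted p = 0.0347). Postn, Dcn and Bgn had differences of -5.51 ± 1.47, -5.03 ± 1.31 and -4.62 ± 1.12 that did not pass (adjusted p = 0.0913, 0.087 and 0.0715). Postn, a secreted adhesion protein of fibroblasts, lay at 7.55 in ESC replicate 1 against 1.80 and 5.57 in 3-day replicates 1 and 2, and 10.90 in ESC replicate 2 against 2.76 in 3-day replicate 3. 3-day replicate 2 thus lay between replicate 1 and ESC in this gene. Ccn2, a secreted protein induced by mechanical strain and TGF-beta, lay above ESC without passing (1.14 ± 0.32, adjusted p = 0.104).

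Among matrix proteases and their inhibitors, 4 of 9 were lower and 5 did not pass (median -1.71). Timp3 and Timp2, tissue inhibitors of metalloproteinases, fell by 2.49 ± 0.27 (adjusted p = 0.00475) and 1.95 ± 0.29 (adjusted p = 0.0143). Serpinf1, the secreted serpin called pigment epithelium-derived factor, fell from 5.66 to 3.64 and 4.51 on UniSet and from 11.61 to 7.41 on Whole Genome (-2.73 ± 0.53, adjusted p = 0.034), and Mmp11, a metalloproteinase of stroma, by 1.74 ± 0.38 (adjusted p = 0.0496). Timp1 (-0.94 ± 0.29, adjusted p = 0.125) and Mmp2 (-0.23 ± 0.38, adjusted p = 0.784) did not pass.

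Basement membrane genes lay closer to 0, with a median of 0.08 over 9 tested members, 1 lower and 8 not passing. Nid1, which links laminin to type IV collagen, fell from 8.47 to 5.51 and 6.41 on UniSet and from 9.60 to 7.08 on Whole Genome (-2.48 ± 0.33, adjusted p = 0.00918). Its paralog Nid2 differed by -0.14 ± 0.28, adjusted p = 0.829. Lama1, the laminin chain of early embryonic basement membranes, lay at 5.19 in ESC replicate 1 against 7.67 and 5.44 in 3-day replicates 1 and 2, and 7.72 in ESC replicate 2 against 10.77 in 3-day replicate 3. It was above ESC in all 3 EB samples but close to it in replicate 2, and did not pass (2.09 ± 0.61, adjusted p = 0.114). Col4a1 and Col4a2, the main chains of type IV collagen, differed by 0.14 ± 0.43 and 0.47 ± 0.51 (adjusted p = 0.892 and 0.656). Whether this list differs from the other matrix lists was not tested.

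Of 13 tested genes of the list of cytoskeletal and contractile genes, 5 were lower and 8 did not pass (median -1.50). The 5 were the S100 genes S100a4 and S100a6, Anxa1, Anxa2 and Lgals1, while a further S100 gene of the list, S100a11, differed by -0.83 ± 0.28, adjusted p = 0.163. S100a6, a calcium-binding protein, fell from 11.59 to 8.78 and 9.32 on UniSet and from 14.80 to 12.83 on Whole Genome (-2.26 ± 0.25, adjusted p = 0.00559), and was above background on every array. Anxa1, which binds membranes and limits inflammation, fell from 9.67 to 7.00 and 7.43 on UniSet and from 12.26 to 10.23 on Whole Genome (-2.23 ± 0.30, adjusted p = 0.00864), and its relative Anxa2 by 1.22 ± 0.25 (adjusted p = 0.0407). Lgals1, the galactoside-binding lectin galectin 1, fell by 1.76 ± 0.27 (adjusted p = 0.0147). Vim, the intermediate filament of mesenchymal cells, lay at 9.76 in ESC replicate 1 against 5.998 and 8.54 in 3-day replicates 1 and 2, and 13.05 in ESC replicate 2 against 9.89 in 3-day replicate 3. Its difference of -2.68 ± 0.88 did not pass (adjusted p = 0.155), with 3-day replicate 1 far below replicate 2. Acta2, smooth muscle actin, differed by -2.97 ± 1.27, adjusted p = 0.248, and Tagln by -1.50 ± 0.59, adjusted p = 0.218.

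Secreted regulators of development, and the adaptor gene Grb10, fell as single genes or pairs within their lists. Inhba, the activin A subunit, fell from 5.07 to 2.46 and 3.66 on UniSet and from 9.97 to 5.41 on Whole Genome (-3.20 ± 0.64, adjusted p = 0.0384). Tgfb3, a TGF-beta ligand, fell from 5.61 to 2.88 and 3.92 on UniSet and from 9.49 to 5.53 on Whole Genome (-2.94 ± 0.43, adjusted p = 0.0126), and these were 2 of 5 tested genes of the Nodal and TGF-beta list. Grb10, an imprinted adaptor that dampens insulin and IGF receptor signalling, fell from 8.78 to 4.89 and 6.48 on UniSet and from 11.42 to 7.94 on Whole Genome (-3.16 ± 0.55, adjusted p = 0.0236), and with Igfbp7 made 2 of 6 in the IGF list. Igf2, the imprinted growth factor, lay above ESC in all 3 EB samples without passing (3.06 ± 1.02, adjusted p = 0.159). Dkk2 was the 1 lower gene of 5 in the Wnt list. Enpp2, the secreted enzyme autotaxin that makes lysophosphatidic acid, fell from 5.32 to 2.81 and 2.63 on UniSet and from 9.46 to 6.67 on Whole Genome (-2.72 ± 0.23, adjusted p = 0.00415). Its list, formative and primed epiblast genes, had no other call among 6.

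Genes of complement fell, and 1 gene of antigen display. Of 5 complement and innate secreted genes tested, 3 were lower and 2 did not pass (median -2.98). Masp1, a protease of the lectin pathway of complement, was above background on no EB array, a fall of at least 8.20-fold (adjusted p = 0.0107). C1ra and C1s1, the proteases of complement C1, fell by 2.98 ± 0.28 (adjusted p = 0.00415) and 2.71 ± 0.33 (adjusted p = 0.00581). The chemokines Ccl2 (-2.42 ± 0.65, adjusted p = 0.0922) and Ccl7 (-3.10 ± 1.03, adjusted p = 0.159) did not pass. Ccl7 lay at 6.35 in ESC replicate 1 against 2.32 and 6.29 in 3-day replicates 1 and 2, and 9.81 in ESC replicate 2 against 5.33 in 3-day replicate 3, so that 3-day replicate 2 was level with ESC while the other EB samples were not. B2m, the light chain of class I antigen-presenting molecules, fell from 10.28 to 8.31 and 9.27 on UniSet and from 13.83 to 11.79 on Whole Genome (-1.72 ± 0.30, adjusted p = 0.0234), the 1 call among 8 genes of interferon response and antigen presentation, whose median was -0.07. In the same list Psmb8, a subunit of the immunoproteasome, lay above ESC without passing (1.55 ± 0.41, adjusted p = 0.087).

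Transcription factors of mesenchyme fell in 2 of 7 tested members of their list, with 5 receptors and factors not passing (median -1.73). Twist1, a factor of mesenchyme and neural crest, fell from 4.75 to 3.19 and 3.69 on UniSet and from 8.15 to 6.32 on Whole Genome (-1.51 ± 0.32, adjusted p = 0.0445), and Hoxb7, a homeobox gene of posterior identity, from 5.16 to 2.98 and 3.28 on UniSet and from 7.29 to 6.001 on Whole Genome (-1.68 ± 0.26, adjusted p = 0.0158). Pdgfra and Pdgfrb, receptors for platelet-derived growth factor, differed by -1.99 ± 0.52 and -1.73 ± 0.46 (adjusted p = 0.087 and 0.0895). Thy1, a surface glycoprotein of fibroblasts, differed by -2.35 ± 0.70, adjusted p = 0.122. Further falls outside the lists, named after their values were seen, were the factor Nfix (-3.30 ± 0.46, adjusted p = 0.0109), the adhesion molecule Vcam1 (-3.61 ± 0.68, adjusted p = 0.0317), the collagen-associated secreted protein Aebp1 (-3.44 ± 0.55, adjusted p = 0.0166), the caveolar coat protein Cavin3 (-2.94 ± 0.34, adjusted p = 0.00559) and the collagen receptor Ddr2 (-1.64 ± 0.24, adjusted p = 0.0126). Ccnd2, which encodes cyclin D2, fell from 4.75 to 3.10 and 2.65 on UniSet and from 11.70 to 9.19 on Whole Genome (-2.16 ± 0.41, adjusted p = 0.0308) and was the 1 called gene of 21 in the mitotic cell cycle list, whose median was -0.13.

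The list of amino acid and unfolded protein stress held 4 further falls. Atf4 is the transcription factor whose translation increases under amino acid shortage and other stress, and it drives genes of amino acid synthesis and uptake, among them Atf5, Asns, Psat1, Trib3 and Ddit3. Promoter windows of 4 members are shown, because 2 of these genes fell and 2 did not pass. They run from 250 bases before to 50 bases after the start of the gene and come from RefSeq (GRCm38.p6). Capitals mark CCAAT, the site bound by the factor NF-Y, in Atf4 (chr15:80254934-80255233, plus strand) and in 1 of the 2 listed windows of Atf5 (chr7:44815609-44815908, minus strand), and TGATGNAA, the core of the composite C/EBP and ATF element, in Asns (chr6:7693160-7693459, minus strand) and Trib3 (chr2:152344011-152344310, minus strand), each on either strand.
Atf4: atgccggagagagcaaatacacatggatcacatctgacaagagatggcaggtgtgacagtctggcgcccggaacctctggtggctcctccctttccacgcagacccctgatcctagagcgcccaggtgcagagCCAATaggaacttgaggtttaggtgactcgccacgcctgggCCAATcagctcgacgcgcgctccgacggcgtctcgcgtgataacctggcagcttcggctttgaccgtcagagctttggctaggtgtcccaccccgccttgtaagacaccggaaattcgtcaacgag
Atf5: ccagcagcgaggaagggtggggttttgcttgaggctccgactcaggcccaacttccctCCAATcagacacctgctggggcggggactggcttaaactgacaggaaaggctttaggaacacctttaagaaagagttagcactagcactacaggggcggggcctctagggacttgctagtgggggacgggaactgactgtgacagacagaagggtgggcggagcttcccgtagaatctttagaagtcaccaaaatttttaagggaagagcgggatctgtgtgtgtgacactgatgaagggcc
Asns: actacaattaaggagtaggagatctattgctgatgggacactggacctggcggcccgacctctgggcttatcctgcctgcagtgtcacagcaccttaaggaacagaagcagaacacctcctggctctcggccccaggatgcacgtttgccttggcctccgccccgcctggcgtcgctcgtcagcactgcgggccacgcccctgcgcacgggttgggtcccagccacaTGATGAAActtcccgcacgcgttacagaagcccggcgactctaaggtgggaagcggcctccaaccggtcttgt
Trib3: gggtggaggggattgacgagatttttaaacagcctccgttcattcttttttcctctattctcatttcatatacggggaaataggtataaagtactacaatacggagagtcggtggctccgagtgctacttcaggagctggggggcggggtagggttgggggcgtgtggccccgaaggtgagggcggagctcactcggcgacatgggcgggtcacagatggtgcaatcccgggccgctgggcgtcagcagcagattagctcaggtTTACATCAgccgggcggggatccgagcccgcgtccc
CCAAT began 117 and 76 bases before the start in Atf4 and 192 bases before it in Atf5, TGATGNAA 23 bases before it in Asns and 14 bases after it in Trib3. No printed match overlapped one of the other motif. Of the 27025 genes with a window, 41.1% held CCAAT and 4.51% held TGATGNAA.

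Of the 13 tested genes of amino acid and unfolded protein stress, 4 were lower, 0 higher and 9 did not pass, with a median of -0.59. The 4 were 30.8% of the list, against 2.65% of all genes tested that were lower. Of the 13 differences 9 lay below 0 and 4 above it. Atf5 lay at 5.96 in ESC replicate 1 against 2.41 and 3.64 in 3-day replicates 1 and 2, and 10.51 in ESC replicate 2 against 7.39 in 3-day replicate 3. All 3 EB samples lay below ESC, Atf5 was above background on 2 of the 6 EB arrays, and the fall was 3.05 ± 0.35 (adjusted p = 0.00559). Atf4 itself was above background on every array and lay at 10.60 in ESC replicate 1 against 8.80 and 9.59 in 3-day replicates 1 and 2, and 13.59 in ESC replicate 2 against 11.83 in 3-day replicate 3, a fall of 1.53 ± 0.27 (adjusted p = 0.0236). Slc7a3, a carrier of cationic amino acids, fell from 6.44 to 4.96 and 4.78 on UniSet and from 11.71 to 9.77 on Whole Genome (-1.77 ± 0.28, adjusted p = 0.0158). Psat1, an enzyme of serine synthesis, fell from 9.82 to 8.36 and 8.90 on UniSet and from 12.25 to 10.69 on Whole Genome (-1.32 ± 0.24, adjusted p = 0.0258). Phgdh, also an enzyme of serine synthesis, lay above ESC in all 3 EB samples without passing (0.50 ± 0.35, adjusted p = 0.47). Ddit3, the stress factor CHOP, differed by -1.84 ± 0.46 without passing (adjusted p = 0.0776), and 3-day replicate 2 (6.12) lay nearer to ESC (6.68) than replicate 1 (4.50). Trib3, a pseudokinase induced by Atf4, differed by -0.59 ± 0.19, adjusted p = 0.153, and Shmt2, a mitochondrial enzyme of one-carbon metabolism, by -0.86 ± 0.25, adjusted p = 0.114. Asns, asparagine synthetase, was lower in EB on UniSet and higher on Whole Genome (11.06 to 11.45), with a fitted difference of -0.13 ± 0.29, adjusted p = 0.847. The chaperone Hspa5, the usual mark of unfolded protein stress, differed by -0.22 ± 0.26, adjusted p = 0.686.

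Outside the list, single genes named after their values were seen are given with no count behind them. Nupr1, a small stress-induced nuclear protein, fell from 6.93 to 2.58 and 4.89 on UniSet and from 8.30 to 5.44 on Whole Genome (-3.02 ± 0.59, adjusted p = 0.0347), and Stc2, a secreted glycoprotein, from 4.95 to 2.67 and 2.73 on UniSet and from 7.22 to 6.17 on Whole Genome (-1.73 ± 0.28, adjusted p = 0.0165). The cytosolic tRNA synthetases for asparagine and leucine, Nars and Lars, fell by 1.07 ± 0.21 (adjusted p = 0.0333) and 1.11 ± 0.20 (adjusted p = 0.0236). Slc7a11, the cystine carrier, had a named probe on Whole Genome only, where it read 8.27 in ESC replicate 2 and 4.42 in 3-day replicate 3, in which it was not above background on either array. With 1 sample of each kind this has no test. Slc3a2, its partner chain, differed by -0.65 ± 0.48, adjusted p = 0.495. Of the 12 tested genes of the stress list that had a promoter window, 8 held CCAAT, 2 of them (Atf4 and Atf5) shown above, and the 2 with TGATGNAA were Asns and Trib3. Of the 4630 named tested genes with a window, 43.7% held CCAAT and 2.48% held TGATGNAA.

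Rises were fewer, and only 7 of the 50 reached 4-fold. Car4, a membrane-anchored carbonic anhydrase, had the largest, from 3.26 to 7.67 and 5.34 on UniSet and from 7.99 to 11.90 on Whole Genome (3.52 ± 0.75, adjusted p = 0.0453). It was above background on neither UniSet ESC array and on both Whole Genome ESC arrays. Fgfbp1, a secreted carrier that releases fibroblast growth factors from the matrix, lay at 2.55 in ESC replicate 1 against 5.76 and 5.21 in 3-day replicates 1 and 2, and 5.75 in ESC replicate 2 against 9.50 in 3-day replicate 3. All 3 EB samples lay well above ESC, and the rise was 3.26 ± 0.32 (adjusted p = 0.00415). It was the 1 called gene of 6 in the FGF and ERK list, while Dusp6, a feedback phosphatase of ERK, differed by -0.78 ± 0.21, adjusted p = 0.0964 and Spry1 by 0.67 ± 0.25, adjusted p = 0.191. Rgcc, a regulator of the cell cycle, rose from 2.91 to 4.51 and 4.77 on UniSet and from 5.65 to 8.42 on Whole Genome (2.14 ± 0.34, adjusted p = 0.0165), and Clu, the secreted chaperone clusterin, from 3.82 to 5.73 and 5.01 on UniSet and from 7.63 to 10.52 on Whole Genome (2.06 ± 0.39, adjusted p = 0.0319). Of the 50 higher genes, 28 were above background on both UniSet ESC arrays and 15 on neither, so the size of the rise is not exact for those 15.

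Epithelial genes supplied 3 calls among the rises. Claudins seal the tight junctions between epithelial cells. The promoter of Cldn4 (chr5:134946885-134947184, minus strand) is shown beside that of Col6a1 (chr10:76725995-76726294, minus strand), a gene that fell, since both hold TGANTCA, the site of AP-1 factors, in capitals.
Cldn4: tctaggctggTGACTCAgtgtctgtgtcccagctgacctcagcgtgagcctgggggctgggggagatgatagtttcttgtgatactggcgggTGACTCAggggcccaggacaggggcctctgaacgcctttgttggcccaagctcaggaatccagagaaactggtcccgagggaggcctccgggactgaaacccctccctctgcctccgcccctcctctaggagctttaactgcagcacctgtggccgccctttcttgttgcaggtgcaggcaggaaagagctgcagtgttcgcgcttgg
Col6a1: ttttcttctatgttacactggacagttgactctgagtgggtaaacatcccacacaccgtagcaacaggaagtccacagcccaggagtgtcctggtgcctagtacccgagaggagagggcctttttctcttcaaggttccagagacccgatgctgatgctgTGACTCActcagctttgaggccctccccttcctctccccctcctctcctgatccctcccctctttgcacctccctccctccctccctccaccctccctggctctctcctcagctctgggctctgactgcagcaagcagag
The motif began 240 and 158 bases before the start of Cldn4 and 90 bases before that of Col6a1. It occurred in 8.97% of the 27025 genes with a window, in 9 of 120 lower genes (7.50%) and in 3 of 38 higher genes (7.89%), against 6.09% of the 4630 named tested genes with a window. CCAAT occurred in 40.8% of the lower, 36.8% of the higher and 43.7% of the tested genes. For TGATGNAA the shares were 4.17% of the lower (5 genes), 5.26% of the higher (2 genes) and 2.48% of the tested genes. These shares are descriptions and show no site that is in use.

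Of 16 tested genes of epithelial adhesion and keratins, 3 were higher, 0 lower and 13 did not pass. The 3 were 18.75% of the list, against 0.794% of all genes tested that were higher. Of the 16 differences 15 were above 0, with a median of 1.10, while 43.9% of all genes tested lay below 0. Cldn4 lay at 5.17 in ESC replicate 1 against 6.28 and 6.35 in 3-day replicates 1 and 2, and 9.07 in ESC replicate 2 against 10.71 in 3-day replicate 3, a rise of 1.34 ± 0.28 (adjusted p = 0.0437). Cldn7 rose from 5.603 to 7.36 and 7.00 on UniSet and from 11.26 to 12.16 on Whole Genome (1.25 ± 0.25, adjusted p = 0.0361). Wfdc2, a secreted protease inhibitor of epithelia, rose from 5.85 to 7.98 and 7.98 on UniSet and from 9.56 to 11.82 on Whole Genome (2.15 ± 0.38, adjusted p = 0.0236). In these 3 genes every EB sample lay above the ESC sample of its product, and all ESC and EB arrays were above background. The keratins of simple epithelium did not pass: Krt18 lay at 7.07 in ESC replicate 1 against 9.68 and 8.06 in 3-day replicates 1 and 2, and 8.73 in ESC replicate 2 against 12.37 in 3-day replicate 3 (2.62 ± 0.62, adjusted p = 0.0659), and Krt19 differed by 2.24 ± 0.65, adjusted p = 0.114. In both keratins 3-day replicate 2 stayed nearest to ESC. Krt8, the partner of Krt18, was dim on UniSet and on Whole Genome read 8.55 in ESC and 12.2 in EB. Epcam and Cdh1, adhesion molecules that ESC already express, differed by 0.07 ± 0.24 and 0.38 ± 0.33 (adjusted p = 0.905 and 0.573). Krt7, a further keratin of simple epithelia, was listed with placental genes and rose by 1.29 ± 0.28 (adjusted p = 0.0496).

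Further rises are single genes. Sfn, Lad1, Gjb5, Kdf1 and Krtcap3 are in no list, were named after their values were seen and have no count behind them. Sfn, the 14-3-3 protein of stratified epithelia, rose from 6.85 to 8.22 and 7.87 on UniSet and from 9.69 to 11.44 on Whole Genome (1.45 ± 0.23, adjusted p = 0.0159). Lad1, a protein of epithelial anchoring filaments, rose by 1.61 ± 0.28 (adjusted p = 0.0236), and Gjb5, a connexin of skin and placenta, by 1.45 ± 0.30 (adjusted p = 0.0407). Kdf1, needed for the differentiation of keratinocytes, and Krtcap3 rose by 1.08 ± 0.24 and 1.24 ± 0.26 (adjusted p = 0.0499 and 0.042). Of the listed genes, Rhox5, a homeobox gene of the X-linked reproductive cluster that is active in extraembryonic cells, lay at 4.79 in ESC replicate 1 against 7.03 and 6.52 in 3-day replicates 1 and 2, and 9.15 in ESC replicate 2 against 11.39 in 3-day replicate 3 and rose by 2.04 ± 0.32 (adjusted p = 0.016). Rhox6 differed by 1.96 ± 0.56, adjusted p = 0.111. Kit, a receptor tyrosine kinase of germ and blood stem cells, rose from 4.70 to 5.79 and 5.63 on UniSet and from 7.94 to 9.48 on Whole Genome (1.25 ± 0.21, adjusted p = 0.0178), while its ligand gene Kitl, made by stromal cells, lay below ESC without passing (-2.45 ± 0.68, adjusted p = 0.103). Stmn2, a microtubule regulator of neurons, rose by 1.10 ± 0.19 (adjusted p = 0.0222) as the 1 call of 7 neuroectoderm genes, and Ccng1, a p53 target, by 1.21 ± 0.23 (adjusted p = 0.034) as the 1 call of 14 p53 targets.

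Genes of the endoderm that forms on the outside of EB showed large differences without a call. Of 10 tested genes for secreted and uptake proteins of visceral endoderm, 0 passed, all 10 lay above 0 and the median was 1.85. Over all genes tested 43.9% lay below 0. The median of the 10 genes was 2.11 in 3-day replicate 1, 0.15 in replicate 2 and 2.30 in replicate 3, so replicate 2 lay near ESC. Ttr, the thyroid hormone carrier transthyretin, lay at 2.27 in ESC replicate 1 against 6.05 and 2.57 in 3-day replicates 1 and 2, and 5.67 in ESC replicate 2 against 10.74 in 3-day replicate 3 (3.39 ± 1.28, adjusted p = 0.2). Apoa1, an apolipoprotein, lay at 2.19 in ESC replicate 1 against 4.84 and 2.82 in 3-day replicates 1 and 2, and 6.17 in ESC replicate 2 against 8.93 in 3-day replicate 3 (2.11 ± 0.73, adjusted p = 0.17). Spink1, a trypsin inhibitor, differed by 2.41 ± 1.16, adjusted p = 0.3, and Gata4, a transcription factor of primitive endoderm, by 0.20 ± 0.28, adjusted p = 0.743. Sox17, which had no usable UniSet value, read 6.07 in ESC replicate 2 and 9.34 in 3-day replicate 3, and Gata6 read 6.40 and 7.45 there. The summed linear intensity of 10 endoderm markers on both products was 117.1 in ESC replicate 1 against 269.9 and 100.5 in 3-day replicates 1 and 2, and 1777 in ESC replicate 2 against 4814 in 3-day replicate 3. Only 2, 4 and 2 of the 10 were above background on both arrays of these UniSet samples, and 9 in each Whole Genome sample.

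Pluripotency genes gave no call at 3 days. Of 11 core pluripotency genes tested 0 passed, with a median of -0.09, and of 10 naive pluripotency genes 0 passed, with a median of -0.17. Pou5f1, which encodes Oct4, lay at 9.12 in ESC replicate 1 against 8.395 and 8.32 in 3-day replicates 1 and 2, and 12.95 in ESC replicate 2 against 12.30 in 3-day replicate 3, below ESC in every EB sample, and did not pass (-0.73 ± 0.32, adjusted p = 0.263). Zfp42, a marker of naive ESC, lay at 5.34 in ESC replicate 1 against 5.04 and 6.33 in 3-day replicates 1 and 2, and 12.75 in ESC replicate 2 against 12.42 in 3-day replicate 3. 3-day replicate 2 was above ESC and the others below, and the fitted difference was -0.06 ± 0.65 (adjusted p = 0.971). Nanog had a named probe on Whole Genome only and read 12.5 in ESC and 12.8 in EB. The methyltransferases Dnmt3a and Dnmt3b, which rise in the epiblast, differed by -1.55 ± 0.35 and -0.98 ± 0.34 (adjusted p = 0.0547 and 0.168). A p that misses the threshold does not show that a level stayed the same.

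The lists chosen for the 2 additives that were withdrawn held no called gene. Of 7 tested genes of the LIF receptor and STAT3 targets 0 passed, with differences from -0.51 to 0.49. Il6st, the shared receptor chain gp130, differed by -0.51 ± 0.18, adjusted p = 0.179, and Klf4, a STAT3 target, by -0.43 ± 0.20, adjusted p = 0.295. The other 9 genes of this list with a probe on both products were too dim on UniSet to be tested, and on Whole Genome, with no test, they ranged from Myc, a growth regulator (9.17 in ESC and 7.10 in EB), to Lifr, the LIF receptor (4.41 and 5.61). Gbx2, a homeobox factor, read 6.398 and 5.37, and Socs3, the feedback inhibitor of STAT3 signalling, 8.45 and 7.79. Of 23 genes of glutathione and redox balance, the list for the thiol b-mercaptoethanol, 0 passed, with differences from -1.02 to 1.52. Gpx3, a secreted glutathione peroxidase, had the highest (1.52 ± 0.37, adjusted p = 0.07), and Gsto1, a glutathione transferase, the lowest (-1.02 ± 0.42, adjusted p = 0.239). Id2, an inhibitor of differentiation and target of bone morphogenetic proteins (BMP), lay at 2.34 in ESC replicate 1 against 4.29 and 3.64 in 3-day replicates 1 and 2, and 6.36 in ESC replicate 2 against 9.34 in 3-day replicate 3 and just missed the threshold (2.22 ± 0.49, adjusted p = 0.0516), while Id3 differed by 0.57 ± 0.66, adjusted p = 0.682. Id2 was above background on the Whole Genome arrays alone.

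Lists of general cell function had few or no calls, as the plot of list medians shows. None of 20 hypoxia and glycolysis genes (median -0.24), 13 cholesterol genes (median 0.26) or 21 cytosolic ribosomal protein genes (median 0.16) passed. Over all 36 lists, 332 of 701 genes were tested and 58 were called, 10 higher and 48 lower, which is 17.5% against 3.44% of all genes tested. Those lists were chosen with earlier results of these data known, so that share is a description. Without ESC replicate 2, or without 3-day replicate 3, 0 listed genes were called. The other 149 named calls lay outside the lists.

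**Figure D4:**
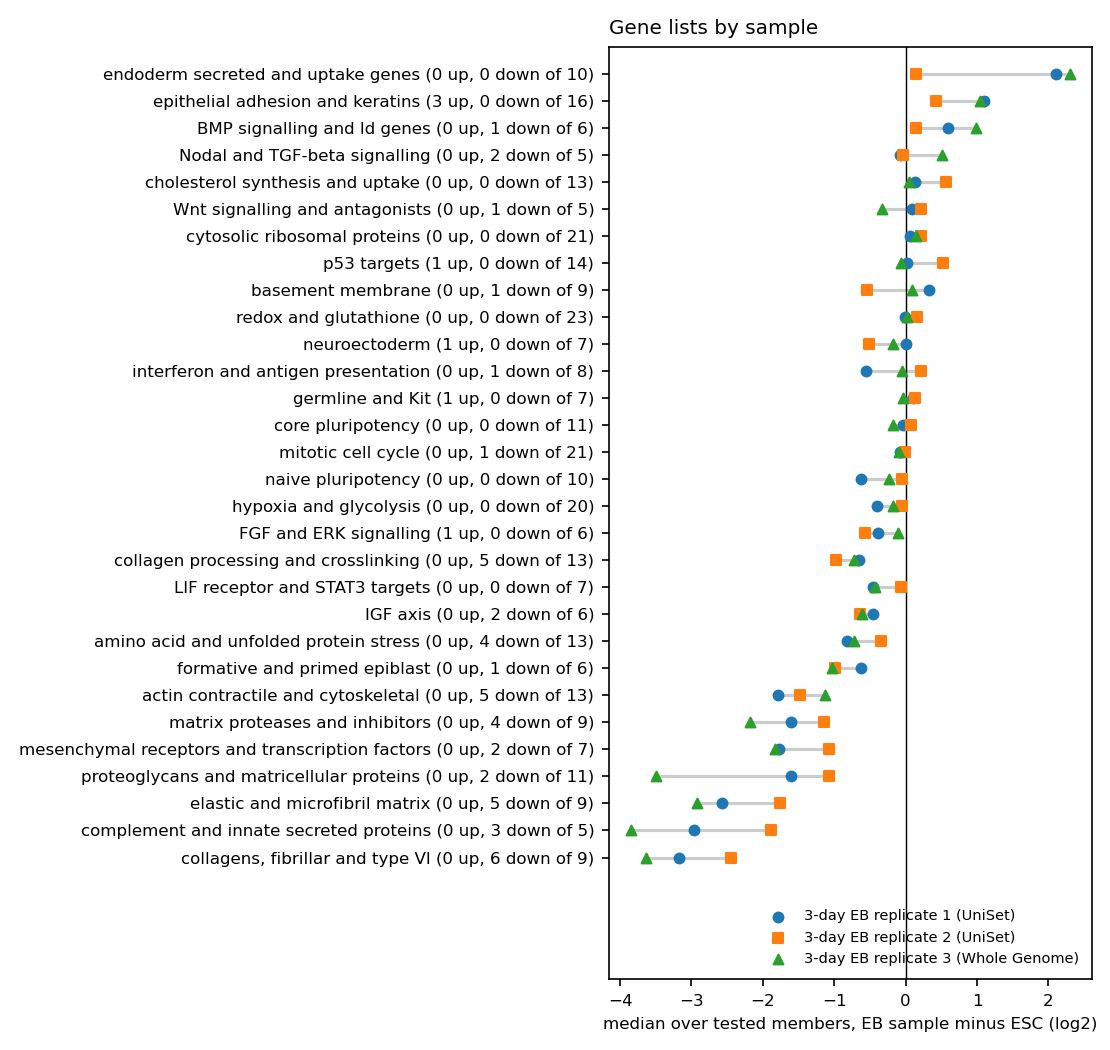
For each list with at least 5 tested members (rows, with the numbers of higher and lower calls), the x axis gives the median log2 difference of its members in each 3-day EB sample from the ESC sample of the same product. Collagens and complement genes lie lowest in all 3 samples, endoderm genes lie highest in replicates 1 and 3 but near 0 in replicate 2, and core pluripotency, redox, ribosomal and cell cycle genes lie near 0.

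Genes read on the Whole Genome arrays alone, with 1 sample of each kind and so no test, add members of the same groups. Of 2708 such named genes above background in a group, 341 were at least 2-fold higher and 197 at least 2-fold lower in 3-day replicate 3. Rises of this size outnumbered falls here. The counts of 79 higher and 219 lower tested genes cannot be set directly beside these. They ask for 2-fold on each product and cover genes that passed another filter, while these rest on 1 pair of samples. Fn1, which encodes fibronectin, read 13.5 on the log2 scale in ESC and 10.98 in EB. Ecm1, a secreted matrix protein, read 10.5 and 7.25, and P4ha3, a collagen prolyl hydroxylase, 7.96 and 3.36, the latter not above background. Dkk3, a secreted relative of Dkk2, read 8.92 and 5.51. Among the higher genes Nog, the BMP antagonist noggin, read 4.93 in ESC and 8.47 in EB. A further 253 listed genes had a probe on both products but were too dim on UniSet to be tested. On Whole Genome 56 of these were at least 2-fold higher and 83 at least 2-fold lower. H19, the imprinted noncoding RNA next to Igf2, had the highest difference of them, at 6.13 in ESC and 10.4 in EB, and Wnt4, a signalling ligand of epithelia, read 4.29, not above background, and 7.92. Mmp3 (stromelysin), Cxcl12 (a chemokine of stroma) and Lum read 9.83, 11.9 and 9.17 in ESC against 2.79, 6.396 and 3.75 in EB, where Mmp3 and Lum were not above background. Markers of blood and macrophages went both ways. Their summed linear intensity over 6 markers was 64.6 in ESC replicate 1 against 80.9 and 80.7 in 3-day replicates 1 and 2, and 1019 in ESC replicate 2 against 1527 in 3-day replicate 3. Only 1 of the 6, Cd68, was above background on both arrays of each UniSet sample and of 3-day replicate 3, against 4 in ESC replicate 2. Lyz2, a lysozyme of macrophages, read 8.65 in ESC on Whole Genome and 2.56 in EB, and the adaptors Tyrobp and Fcer1g 5.76 and 5.37 in ESC against 3.46 and 3.14 in EB, with none of the 3 above background in EB. Cd68, a lysosomal protein of macrophages, lay above ESC in all 3 EB samples without passing (1.03 ± 0.24, adjusted p = 0.0629), and Ptprc, the pan-leukocyte antigen, was above background on no array of either group. Of 4 tested genes in the longer list of blood genes, Cd2, a surface antigen of T cells, was higher (1.78 ± 0.27, adjusted p = 0.0147) and Apbb1ip lower.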

How the data were processed

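Per the labels' protocols, DNase-treated RNA underwent linear amplification with a biotin label and was detected with Cy5. The deposited scanner export of each array gives a raw intensity for each spot (scanner software version 4.1.0.29054) and a further intensity that the authors normalized to the array's median, per the file headers. Raw intensity includes values below 0, so its background had already been subtracted. How replicates relate to cultures is not given in the sources used here. The authors' combined matrix was not used, because its Whole Genome values stand beside other probe names than in the exports.

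Spots marked masked, contaminated or irregular were set aside, and raw intensity was averaged per probe, quantile-normalized within each product, raised to the median negative control where lower (3.485 on UniSet, 5.238 on Whole Genome, linear scale) and put on the log2 scale. The 2 arrays of a sample, which share the first number of their titles, were averaged. Of 19758 shared gene probes, 15857 carried 1 symbol, covering 14358 genes, 3837 none and 64 several. Genes with a probe above background on every array of at least 1 group were tested, the probe of highest mean standing for its gene. limma 3.58.1 in R 4.3.3 (lmFit, eBayes) fitted group and product over 8 samples, with 3 samples of 7-day EB helping to set the product term and the spread (4 residual degrees of freedom, prior worth 4.25) and Benjamini-Hochberg adjustment over 6299 genes. For a tested gene above background on no array of a group, the size of the change is given only as a bound, and levels printed there are readings below background: the mean of the measured group against a limit, which on each array is the lowest signal called above background, or the probe's own signal if that is larger. On simulated data with these samples' spread and 100 changed genes, 61% of genes changed by a log2 of 1 were called. Of those changed by 2, 100% were called, with 4 false calls in each case. These shares do not hold for a gene with a wide spread between samples: Col3a1, at -5.23 ± 1.54, did not pass. Alternatives covered normalization, background, floor, filter, flags, samples, product, analysis date, arrays, replicate number and test.

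The comparison and the 36 gene lists were chosen with earlier results of these data known. Genes were named by rule: the 12 largest rises and falls that passed and went the same way on both products, up to 3 called members of each list with the smallest p, and 24 fixed genes. The text leaves some out, 1 of the 12 falls is not reported here, and it adds members of the lists that did not pass, for contrast.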

Additional observations from a re-analysis of the deposited data

How the results depend on the processing

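Of the 217 calls (50 higher, 167 lower), none turned direction under any alternative except 1 with no filter on dim probes. Normexp, another floor, every probe on its own, kept flags, limma-trend and ESC with 3-day samples alone gave 199 to 256 calls. Median centring gave 32 higher and 175 lower and the authors' normalized column 33 and 177. A term for the analysis date gave 150 calls (32 higher, 118 lower), and 143 of the 217 calls remained. With no filter there were 102 calls (9 higher, 93 lower, 102 of them at least 2-fold) and 35 in the lists. With genes above background on every array there were 49 (19 and 30), of which 47 at least 2-fold (18 and 29) and 18 in the lists. UniSet arrays alone gave 1 call (0 higher, 1 lower, 1 at least 2-fold, 0 in the lists; 611 genes at an unadjusted p under 0.05). Fitting each array with the sample as a random block gave 544 calls (200 and 344), 357 at least 2-fold (111 and 246) and 113 in the lists. Leaving out 1 sample at a time gave 0 to 335 calls (0 to 93 higher, 0 to 242 lower), 0 to 307 at least 2-fold (0 to 82 higher, 0 to 225 lower) and 0 to 84 in the lists. The cause of these changes was not tested.

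The replicate block gave 75 calls (18 higher, 57 lower, 75 at least 2-fold, again 18 and 57) and 31 in the lists, and 52 of the 217 calls remained. The numbers pair no samples by the labels, and replicate 2 is a Whole Genome sample in ESC and a UniSet sample in 3-day EB. The gap between replicates 1 and 2 correlated at 0.334 across genes between 3-day and 7-day EB. Zfp42 and Gata4, which passed in no fit named here, changed sign. Zfp42 was 0.0614 with ESC and 3-day samples only and with the analysis date as a term. It was 0.35 on UniSet alone, and -0.91 to 0.65 with 1 sample left out. Gata4 was -0.0388 on UniSet alone, -0.12 with the replicate block and -0.15 to 0.62 with 1 sample left out. Signal over background limits the UniSet values: 75 of the 167 lower genes were above background on no UniSet 3-day array, so the sizes of their falls are not exact.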
